A study of Mus musculus with 9 samples.

Results

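Chromatin interactions called with H3K27ac and with RAD21 were compared in untreated mouse embryonic stem cells. The comparison used every interaction of both lists, 36274 H3K27ac pairs and 23630 RAD21 pairs, together 59904 of the 137744 pairs in the 4 lists of the series. They came from 5 of its 9 samples, 2 for H3K27ac and 3 for RAD21. All cells were of the E14 line, carried an auxin-inducible degron on CTCF (CTCF AID) and were grown without the auxin IAA, in serum-free medium with LIF, 1 µM PD0325901 and 3 µM CHIR99021. Untagged cells were not analysed here, so every value belongs to cells with tagged CTCF. In MNase HiChIP, crosslinked chromatin is cut with micrococcal nuclease, neighbouring ends are ligated, and the ligated DNA is enriched with an antibody. An interaction is a pair of genomic bins with more contacts than a distance model predicts. Replicates were pooled into 1 list per antibody, so no value has a replicate error. Intervals are 95% Wilson intervals that cover counting error only, since neighbouring bins and pairs are not independent and PCR reads are not independent molecules.

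Cohesin, of which RAD21 is a subunit, is a ring-shaped complex that extrudes loops of chromatin until it meets a barrier. CTCF bound to its motif is the best known barrier, and it holds cohesin mainly when the motif points into the loop, so that loops tend to end at motifs facing each other. H3K27ac marks nucleosomes of active promoters and enhancers, and pairs called with it have such an element at 1 end or at both.

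The lists differed in length scale. H3K27ac pairs had a median span of 24 kb (range 6 to 1960 kb) and a median of 13 contacts (6 to 558, sum 619529). RAD21 pairs had a median span of 123 kb (5 to 1633 kb), also with a median of 13 contacts (5 to 386, sum 397620). H3K27ac bins were 2 kb and RAD21 bins 1 kb, so RAD21 bins were assigned to the 2 kb grid, which gave 21576 distinct pairs, and contacts of 1 kb pairs in the same 2 kb pair were added. An anchor is a bin at the end of at least 1 pair. There were 27304 H3K27ac and 20231 RAD21 anchor bins. The deposited peak flags marked both ends of each RAD21 pair as peaks, and at least 1 end of each H3K27ac pair (both ends in 85.2%).

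The cells showed H3K27ac pairs at the start sites of 5 of 6 stem cell markers (Pou5f1, Nanog, Sox2, Zfp42 and Esrrb, but not Dppa4). The counts were 1 of 4 for trophoblast, 0 of 4 for primitive endoderm, 1 of 4 for fibroblast and 1 of 4 for neural markers, and 31.3% of all protein-coding genes had such a pair. Those outside the stem cell list rested on 1 pair each, of 9 contacts at Cdx2, 9 at Col1a1 and 8 at Tubb3.

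The common bin pairs with the most contacts in each list are described first, with the sequences at the ends of those led by RAD21. Of the 2061 bin pairs present in both lists, the 6 with the most RAD21 contacts had 291 to 500 RAD21 and 14 to 36 H3K27ac contacts, spanned 42 to 154 kb, and were all also in the CTCF list. A match to the CTCF core motif (14 letters, at most 1 mismatch, both strands) lay in the RAD21 1 kb bins of 11 of their 12 ends. In 4 of the 6 the left match was on the plus strand and the right match on the minus strand, so that they faced each other. Each line gives the match with the fewest mismatches in capitals with 20 bases of the RefSeq GRCm38 genome on each side. The first 8 sequences are the ends of those 4 pairs. The Dhx8 pair, whose matches were both on the plus strand, and the start-site bins of Bcl2l1 and Pou5f1, described further on, follow.
Gng7 pair left end, chr10:80929187-80929240, plus strand: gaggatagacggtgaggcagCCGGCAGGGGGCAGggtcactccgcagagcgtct
Gng7 pair right end, chr10:80988258-80988311, minus strand: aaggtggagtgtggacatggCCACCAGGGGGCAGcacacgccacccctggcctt
chromosome 15 pair left end, chr15:101988264-101988317, plus strand: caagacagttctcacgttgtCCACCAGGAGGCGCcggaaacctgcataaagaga
chromosome 15 pair right end, chr15:102065800-102065853, minus strand: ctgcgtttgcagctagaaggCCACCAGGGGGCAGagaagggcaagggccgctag
Sema3b pair left end, chr9:107602201-107602254, plus strand: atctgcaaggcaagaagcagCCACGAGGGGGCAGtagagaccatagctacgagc
Sema3b pair right end, chr9:107644744-107644797, minus strand: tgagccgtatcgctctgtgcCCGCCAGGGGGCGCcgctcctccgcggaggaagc
Nol6 pair left end, chr4:41050830-41050883, plus strand: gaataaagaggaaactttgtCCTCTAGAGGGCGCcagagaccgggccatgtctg
Nol6 pair right end, chr4:41119100-41119153, minus strand: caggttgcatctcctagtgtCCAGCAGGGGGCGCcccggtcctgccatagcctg
Dhx8 pair left end, chr11:101658949-101659002, plus strand: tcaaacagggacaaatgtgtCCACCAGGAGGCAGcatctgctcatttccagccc
Dhx8 pair right end, chr11:101732812-101732865, plus strand: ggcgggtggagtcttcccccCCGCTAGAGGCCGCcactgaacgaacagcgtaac
Bcl2l1 start-site bin, chr2:152830686-152830739, minus strand: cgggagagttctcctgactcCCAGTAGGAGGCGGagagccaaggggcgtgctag
Pou5f1 start-site bin, chr17:35506119-35506172, plus strand: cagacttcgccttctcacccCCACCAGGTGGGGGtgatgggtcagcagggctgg

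The Gng7 pair joined a bin outside annotated genes to an intron of Gng7, a G protein gamma subunit gene, over 60 kb, with 500 RAD21 and 23 H3K27ac contacts. The chromosome 15 pair joined bins outside annotated genes 76 kb apart, with 386 and 21 contacts. The Sema3b pair (294 and 16 contacts, 42 kb) had its left match in an intron of that semaphorin gene. The right match of the Nol6 pair (291 and 14, 68 kb) was in an intron of Nol6, a nucleolar protein gene. The Dhx8 pair had 411 RAD21 and 36 H3K27ac contacts over 74 kb. Its right match was outside annotated genes in the bin that also holds the start site of Dhx8, an RNA helicase of splicing. The sixth pair joined an intron of Morn1 to the start-site bin of Faap20, a Fanconi anaemia complex gene, over 154 kb, with 396 and 23 contacts. The end without a match was the Faap20 bin. The 6 were chosen for their RAD21 contacts, so the excess over H3K27ac contacts in each is a description.

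The 6 common pairs with the most H3K27ac contacts, chosen for that count, spanned 6 to 10 kb, had 184 to 558 H3K27ac and 8 to 256 RAD21 contacts, and 1 of them was in the CTCF list. None of their 12 ends held the core, which says only that these letters were not in their RAD21 1 kb bins. One joined the start site of Dppa5a, a pluripotency-associated gene, to a bin 6 kb away (252 H3K27ac and 13 RAD21 contacts). Another lay within an intron of Tet2, which oxidises methylcytosine (188 and 14 contacts over 8 kb). The pair with 558 and 256 contacts lay at chr17:39842001-39850000 over noncoding genes, where the H3K27ac coverage of its left bin, 34213, was the highest of the list. The part of coverage in that pair was not tested.

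H3K27ac anchor bins at start sites of protein-coding transcripts were RAD21 anchors more often than H3K27ac anchor bins elsewhere. Of 6664 at start sites, 2188 were RAD21 anchors, a share of 32.8% (31.7 to 34.0). Of 20640 elsewhere, 3664 were RAD21 anchors, 17.8% (17.2 to 18.3). The difference was 15.1 percentage points (Newcombe 95% interval 13.8 to 16.3), and it fell to 5.90 points (4.56 to 7.24) when a RAD21 anchor 1 bin away also counted. For comparison, RAD21 anchors made up 13.4% of all 26892 start-site bins, 7.02% of start-site bins without an H3K27ac pair, and 1.48% of the 2 kb bins of the genome. Seen from RAD21, 60.6% of its 3608 anchor bins at start sites and 22.0% of its 16623 other anchor bins were H3K27ac anchors. The start-site share was above the other share on each of the 20 chromosomes compared. The start-site share ran from 19.1 to 39.0% and the other from 12.5 to 22.1%. X, which had the fewest pairs in both lists among these chromosomes, was lowest for both.

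The difference was a matter of exact position. Elsewhere, the nearest RAD21 anchor lay in the next bin for 16.0% of H3K27ac anchor bins, nearly as often as in the same bin (17.8%). At start sites the nearest RAD21 anchor was in the next bin for 6.80% and in the bin itself for 32.8%. Within 2 kb the shares were 39.6% at start sites and 33.7% elsewhere, and within 6 kb they were 46.9% (45.7 to 48.1) and 46.4% (45.7 to 47.1). Within 20 kb the order was the other way round, with 65.7% (64.5 to 66.8) at start sites and 69.3% (68.7 to 69.9) elsewhere. Both classes stayed above start-site bins without an H3K27ac pair, of which 34.4% had a RAD21 anchor within 20 kb, and above all bins of the genome, with 18.1%. On the 1 kb grid of the RAD21 list, 90.04% of the 2188 bins had a start site in the RAD21 1 kb bin itself. In H3K27ac anchor bins, 27.9% of 1 kb bins with a start site were RAD21 bins, compared with 7.79% of the 1 kb bins without one in the same start-site bins and 10.1% of those elsewhere.

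**Figure D1:**
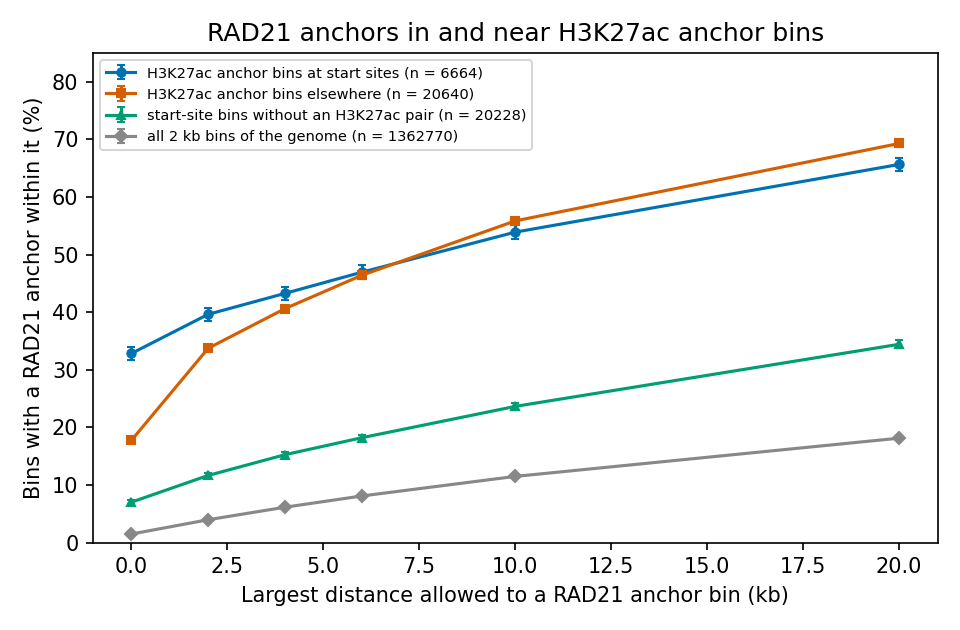
Share of bins (vertical axis, percent) with a RAD21 anchor bin no farther away than the distance on the horizontal axis (kb), for 4 classes of 2 kb bins, with 95% Wilson intervals. H3K27ac anchor bins at start sites start at 32.8% and those elsewhere at 17.8%, the curves meet at 6 kb (46.9 and 46.4%), and both lie above the genome (18.1% within 20 kb).

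The excess at start sites ended at their own bin. H3K27ac anchor bins 2 kb from a start site were RAD21 anchors in 15.7% of cases, those 4 to 10 kb away in 19.4%, 12 to 50 kb away in 18.7%, and 52 to 100 kb away in 18.4%. Bins over 100 kb from any protein-coding start site had the lowest share, 10.04% (8.49 to 11.8).

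H3K27ac coverage moved with the RAD21 share. Median coverage was 2541 in start-site bins that were RAD21 anchors and 2184 in those that were not, and 1411 and 1299 elsewhere. In the lowest of 4 equal classes of coverage the shares were 17.2% (14.3 to 20.5) at start sites and 15.3% (14.5 to 16.3) elsewhere, with overlapping intervals. In the next classes they were 28.8 and 17.1%, 33.1 and 15.7%, and 37.0 and 25.4%. Bins with a single H3K27ac pair were RAD21 anchors in 23.7% of cases at start sites and 13.1% elsewhere. Bins with 10 or more pairs were RAD21 anchors in 57.1 and 46.9%. The part of coverage in the difference between start sites and other bins was not tested beyond these classes, in each of which the start-site value was the higher one.

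**Figure D2:**
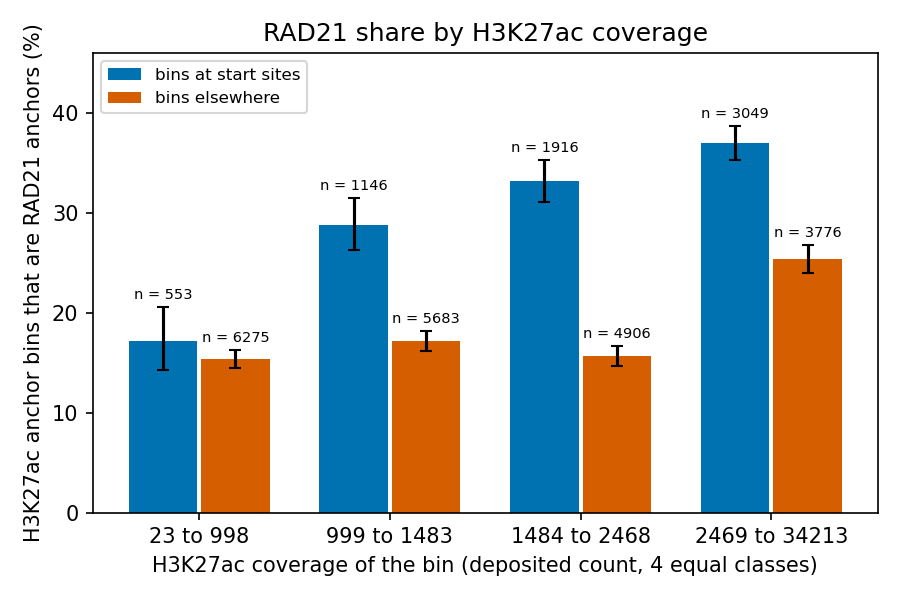
Share of H3K27ac anchor bins that are RAD21 anchors (percent) in 4 equal classes of deposited H3K27ac coverage, for bins at start sites and elsewhere, with 95% Wilson intervals and the number of bins above each bar. The start-site share runs from 17.2 to 37.0%, and the other share stays between 15.3 and 17.1% in the lower 3 classes and is 25.4% in the highest.

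CTCF-list anchors accompanied RAD21 at both kinds of H3K27ac bin. Of the start-site H3K27ac bins that were RAD21 anchors, 71.9% were CTCF-list anchors, against 30.2% of those that were not. Elsewhere the values were 73.6% and 7.78%. Among RAD21 anchors without an H3K27ac pair, 87.0% were CTCF-list anchors. In bins that were not CTCF-list anchors, 16.4% (15.3 to 17.6) of start-site and 5.82% (5.47 to 6.18) of other H3K27ac anchor bins were RAD21 anchors, so that start sites had the higher share there as well. With a CTCF-list anchor the order was reversed, 53.8% (52.0 to 55.6) at start sites and 67.1% (65.7 to 68.6) elsewhere.

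The CTCF core followed another pattern than the CTCF list. It was in 28.5% of the start-site bins and in 44.5% of the other bins that were anchors in both lists, and in 58.0% of RAD21 anchor bins without an H3K27ac pair. The shares in H3K27ac anchor bins without RAD21 were 12.6% at start sites and 8.02% elsewhere. The start-site value was close to that of all start-site bins, 12.4%, and the other was above the 5.45% (5.41 to 5.49) of all 2 kb bins free of unknown bases. Common anchors outside the CTCF list held the core in 12.9% (10.4 to 15.7) at start sites and 7.98% (6.43 to 9.86) elsewhere.

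The strand of the core was set against the side to which pairs ran, in bins whose matches were all on 1 strand. RAD21 pairs ran in the direction of the core in 90.7% of 17821 cases at RAD21 anchors without H3K27ac. At common anchors the share was 86.5% elsewhere and 74.8% (72.6 to 76.8) at start sites. H3K27ac pairs of the same common anchors ran in that direction in 69.0% (67.6 to 70.4) elsewhere and 54.0% (51.9 to 56.1) at start sites. At H3K27ac anchors with a core but without RAD21 the share was 50.2% (48.7 to 51.7).

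Most H3K27ac pairs lay inside a RAD21 pair. Of 36274, 28038 had both bins within the span of at least 1 RAD21 pair, a share of 77.3% (76.9 to 77.7). Same-bin pairs made up 5.68% (2061 pairs), or 13.2% when ends 1 bin apart also counted. A further 3.50% shared 1 end with the holding pair, and the other nested pairs, 68.1%, had both ends strictly between the anchors of a RAD21 pair. With same-bin and shared-end pairs that also lay strictly inside some other RAD21 pair, the strictly enclosed share was 71.9%. Of the rest, 12.3% had both ends outside any RAD21 pair, 7.09% had 1 end inside, and 3.36% had both ends inside RAD21 pairs of which none held both. A nested pair was held by a median of 5 RAD21 pairs (at most 34), and the smallest holder had a median span of 92 kb, compared with 22 kb for the nested pairs themselves. By chromosome the nested share ran from 50.4% on X to 85.4%. X had the fewest pairs of the chromosomes compared, 391 with H3K27ac and 212 with RAD21, and the part of this in its low share was not tested.

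H3K27ac anchors lay inside RAD21 pairs more often than other bins, whatever their partners. RAD21 pairs covered 36.8% of the bins of the genome, 57.4% of all start-site bins and 80.8% of H3K27ac anchor bins (73.8% at start sites, 83.0% elsewhere). Pairs with no start site were nested in 83.0% of cases, those with 1 in 74.6% and those joining 2 in 58.9%. Pairs with RAD21 anchors at neither end, 51.04% of all, were nested in 67.9%, those with 1 such end in 84.5%, and those with 2 in 94.0%. Part of this rise follows from the definition. Ends count as inside, and the pairs with 2 such ends include all 2061 same-bin pairs, which are always nested. When both ends were RAD21 anchors, the same bin pair was in the RAD21 list in 42.4% of 4863 cases, and in 29.7% (26.8 to 32.8) when both ends were start sites.

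Called H3K27ac pairs were also set beside uncalled pairs at the same span, both between H3K27ac anchor bins flagged as peaks. Up to 40 kb the called pairs as a whole had the lower share, by little. At spans of 6 to 10 kb, 82.1% (81.2 to 82.9) of called and 84.3% (83.4 to 85.1) of other pairs were nested, and the called share was the lower one with no start site (84.4 and 85.5%), 1 (79.8 and 81.7%) and 2 (70.6 and 80.2%). Above 20 to 40 kb the shares were 78.0 and 79.2% in all, 82.8 and 82.1% with no start site, 77.2 and 75.2% with 1, and 64.3 and 69.2% with 2. At longer spans the called pairs as a whole had the higher share, with 76.3 and 71.7% above 40 to 80 kb (but 59.2 and 61.3% with 2 start sites), 71.5 and 54.1% above 80 to 160 kb, and 50.95 and 26.6% above 160 to 320 kb. The last 2 differences were 17.5 points (15.9 to 19.0) and 24.4 points (21.8 to 26.9), and 15.1 and 20.5 points without bin pairs that were themselves in the RAD21 list. Above 80 kb the called share was the higher one with 0, 1 and 2 start sites (83.4 and 59.4%, 69.3 and 48.8%, and 51.7 and 43.2% up to 160 kb).

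The same relation was counted from the candidates. Above 160 to 320 kb, 2.70% (2.51 to 2.89) of candidate pairs inside a RAD21 pair and 0.957% (0.890 to 1.03) of the others were called. In the highest of 4 classes of coverage, taken as the geometric mean of both bins, the shares were 8.20 and 3.33%, and in the lowest 0.614 and 0.0795%. The classes between had the same order. At 6 to 10 kb, by contrast, 51.9% of candidates inside and 55.9% of those outside were called. The gap there was in the lower classes of coverage (38.7 and 47.3% in the lowest), and the highest class had 73.7 and 73.6%. Among called pairs of the whole list, contacts differed little by nesting: the median was 20 for nested and 19 for other pairs above 5 to 10 kb, and 9 for both above 160 to 320 kb.

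**Figure D3:**
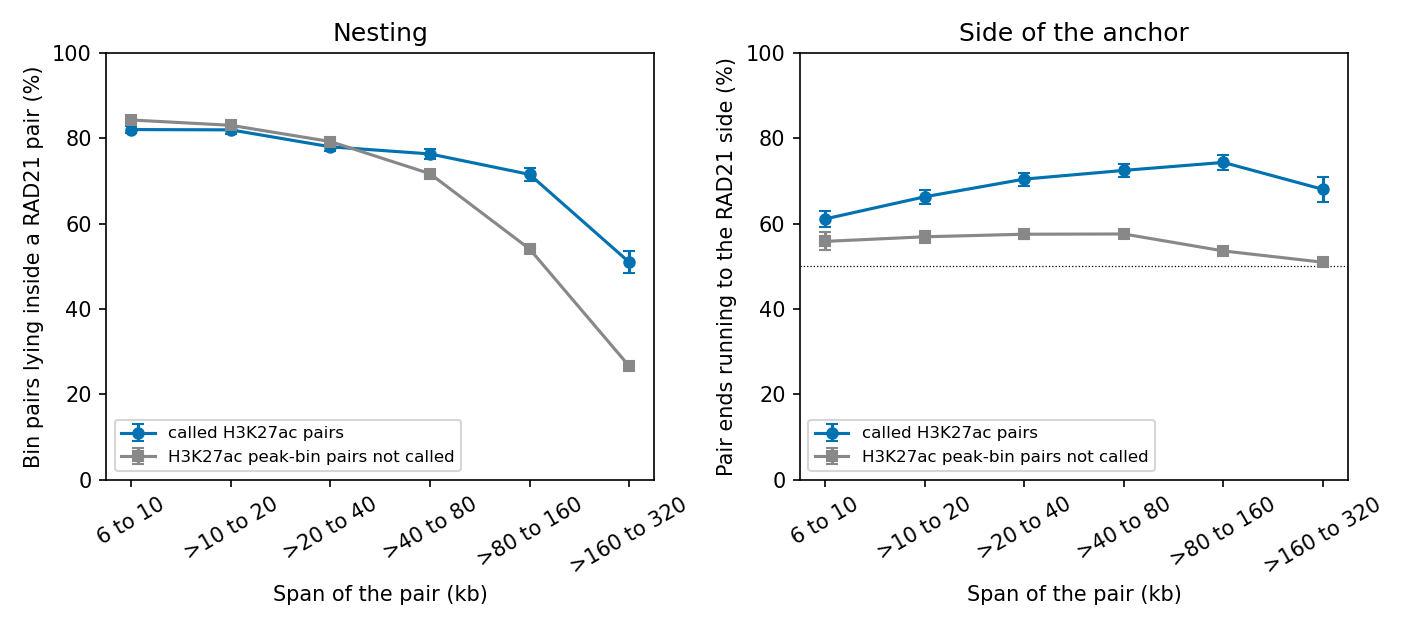
Pairs of H3K27ac peak bins that were called (blue circles) and not called (grey squares), by span (kb), with 95% Wilson intervals. Left, the share lying inside a RAD21 pair (percent), where the curves part above 40 kb and end at 50.95 and 26.6%. Right, the share of pair ends at anchors with RAD21 pairs to 1 side that run to that side (percent; dotted line, 50), where called pairs lie above the others in each class.

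H3K27ac pairs tended to leave a common anchor on the side of its RAD21 pairs. Of the 5852 bins that were anchors in both lists, 4792 (81.9%) had RAD21 pairs to 1 side only. From these, 70.2% (69.5 to 70.9) of 18026 H3K27ac pair ends ran to that side. This count includes 2873 ends at a RAD21 partner, which lie on that side by definition. The share was 67.7% at start sites and 71.9% elsewhere, 69.5% where RAD21 ran to the right and 71.0% where it ran to the left, and above 50% on each of the 20 chromosomes (63.8 to 76.4%). Counted by bin, 50.6% had all of their H3K27ac pairs on the RAD21 side, 14.4% had all on the other side and 35.0% had pairs on both.

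Of the 12658 ends on the RAD21 side, 5648 (44.6%) stopped short of the nearest RAD21 partner, and the other 7010 lay at, between or beyond RAD21 partners. Of all 18026 ends, 31.3% ended short of the nearest RAD21 partner, 15.9% at a RAD21 partner, 7.97% between RAD21 partners and 15.0% beyond the farthest one. The remaining 29.8% ran to the other side. Pairs to the RAD21 side had a median of 13 contacts and a span of 38 kb, those to the other side 14 contacts and 26 kb. Candidate pairs of peak bins that were not called also leaned to the RAD21 side, in 53.7% of ends, against 68.8% of called pairs up to 320 kb. Called pairs were shorter, so the comparison was also made by span. Called and other pairs stood at 61.1 and 55.8% at 6 to 10 kb, at 74.4 and 53.6% above 80 to 160 kb and at 68.04 and 50.96% above 160 to 320 kb. The last 2 differences, 20.7 points (18.9 to 22.5) and 17.1 points (14.1 to 19.9), were 16.1 and 11.6 points without bin pairs in the RAD21 list.

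Seen from RAD21, most pairs did not join 2 anchors of the H3K27ac list. An end outside that list may still carry the mark, which was not measured here. Of the 21576 RAD21 pairs, 53.0% had an H3K27ac anchor at neither end, 27.01% at 1 end and 19.97% at both, while 62.7% held at least 1 H3K27ac pair. When both ends were H3K27ac anchors, 47.8% (46.3 to 49.3) were themselves H3K27ac pairs. That share was 60.1% at spans up to 40 kb, 46.8% above 40 to 80 kb, 43.8% above 80 to 160 kb, 30.1% above 160 to 320 kb and 14.8% (10.1 to 21.3) beyond. RAD21 pairs that were H3K27ac pairs had a median span of 46 kb and 16 contacts, the others 136 kb and 13 contacts. Over the 2061 common pairs the contact counts of the lists were weakly and negatively ranked (Spearman rho of -0.15, a description over bin pairs that share anchors and depth). Within 5 classes of span rho lay between -0.10 and 0.06.

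A few RAD21 pairs held very many H3K27ac pairs. A RAD21 pair of 10 contacts over 1034 kb on chromosome 15, from the start site of 1110038F14Rik, held 365 H3K27ac pairs with 6730 contacts. It enclosed 21 protein-coding start sites, among them Rbfox2, a splicing regulator, Myh9, a myosin heavy chain, and the apolipoprotein L cluster. The bin with the most H3K27ac pairs there, 34, was outside annotated genes. On chromosome 12, a RAD21 pair of 222 kb and 10 contacts that ended at the start site of Zdhhc22 held 283 H3K27ac pairs and the start sites of Irf2bpl, Cipc and Zdhhc22. A pair of 390 kb and 8 contacts on chromosome 6 held 224 around Cd9, a tetraspanin, and Vwf, the von Willebrand factor gene. On chromosome 17, a pair of 304 kb and 9 contacts held 203, and its busiest bin was at a start site of Zfp57. These holders had 8 to 10 RAD21 contacts, below the list's median of 13, and the 4 were chosen for the number they held.

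Of 21851 protein-coding genes, 31.3% (6840) had an H3K27ac pair at a start site and 17.3% (3790) a RAD21 pair. Both kinds met at the same start-site bin in 10.8% (2356). Thus 34.4% (33.3 to 35.6) of genes with an H3K27ac pair also had a RAD21 pair there, and 9.25% (8.79 to 9.72) of genes without one had a RAD21 pair. Among the 2356, 1038 (44.1%) had at least 1 partner bin in common. They had a median of 3 H3K27ac pairs with 40 contacts and 1 RAD21 pair with 17 contacts. The 4484 genes with H3K27ac but not both had a median of 2 H3K27ac pairs with 26 contacts. A CTCF-list anchor was at a start site of 73.4% of genes with both kinds and 33.6% of those 4484. Genes that share a start-site bin share its pairs, so these counts are not of independent genes.

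The 10 genes with the most RAD21 contacts among those with both kinds were led by Bcl2l1, which encodes the anti-apoptotic protein Bcl-xL. Its start-site bin had 17 RAD21 pairs with 1122 contacts and 27 H3K27ac pairs with 422 contacts. In 12 pairs the partner was common, and they carried 1030 of the RAD21 and 234 of the H3K27ac contacts. The pairs of both kinds all ran to lower coordinates, which for this gene on the minus strand is the direction of its own transcription. The strongest RAD21 partner, 134 kb away in an intron of H13, the signal peptide peptidase gene, had 271 RAD21 contacts and with 42 was also the strongest H3K27ac partner. The next RAD21 partners were 64 kb away (151 RAD21 and 16 H3K27ac contacts) and at the start site of H13, 162 kb away (135 and 21). The core in the Bcl2l1 bin printed above is in an intron of Bcl2l1, on the minus strand, and so points the way its pairs ran.

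At 7 of the other 9 leading RAD21 genes, H3K27ac pairs were fewer than RAD21 pairs, and Dhx8 and Zbtb45 had more. Faap20 had 18 RAD21 pairs with 772 contacts and 5 H3K27ac pairs with 59, and all 5 had a RAD21 counterpart. Radil, an effector of Rap GTPases, had 11 with 664 and 2 with 48. Dhx8 had 10 RAD21 pairs with 590 contacts and 12 H3K27ac pairs with 166, of which 5 were common. Cdk5rap3 (510 RAD21 contacts), Tor2a (505), Mlf2 (464) and Upk2, a uroplakin gene (435), had 2 to 6 H3K27ac pairs each. Zbtb45, a zinc finger gene, was nearer to balance, with 423 RAD21 contacts in 13 pairs and 367 H3K27ac contacts in 20, of which 10 were common. Its strongest common partner was the start site of Trim28, a corepressor gene, 16 kb away, with 79 RAD21 and 48 H3K27ac contacts. Pcdhga12, of the clustered protocadherins, had 8 RAD21 pairs with 402 contacts and 1 H3K27ac pair of 13 contacts, with no common partner.

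The 10 genes with the most H3K27ac contacts among those with both kinds had 1 to 4 RAD21 pairs, where the median over all genes with both kinds was 1. Each set of 10 was chosen on the contacts of 1 list, so the contrast between the sets is a description. Tgif1, a homeodomain repressor of TGF-beta signalling, had 41 H3K27ac pairs with 745 contacts and 3 RAD21 pairs with 46, and each of the 3 RAD21 partners was also an H3K27ac partner. The start bins of Trip12, a ubiquitin ligase gene, had 27 with 672 and 3 with 81. They also hold a start site of Fbxo36, an F-box gene, and all of their partner bins lie in Fbxo36. Ywhag, which encodes a 14-3-3 protein, had 21 with 656 and 3 with 102. Its 3 RAD21 partners carried 257 of its H3K27ac contacts, including the start site of Ssc4d, 28 kb away, with 121 H3K27ac and 70 RAD21 contacts. Mcl1, like Bcl2l1 an anti-apoptotic gene of the Bcl2 family, had 18 H3K27ac pairs with 626 contacts and 1 RAD21 pair with 13. That pair, 6 kb long, was also its strongest H3K27ac pair, with 183 contacts. H2-M5, Hnrnpf and Dppa5a also had a single RAD21 pair, of 11, 17 and 13 contacts, and Sema4b, Fignl1 and Ubtf, an RNA polymerase I factor, had 2 to 4. Beside the 77.3% of all H3K27ac pairs that were nested, the pairs of these genes inside a RAD21 pair ran from 41 of 41 at Tgif1 and 28 of 28 at Ubtf to 5 of 8 at Dppa5a and 7 of 20 at Hnrnpf.

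**Figure D4:**
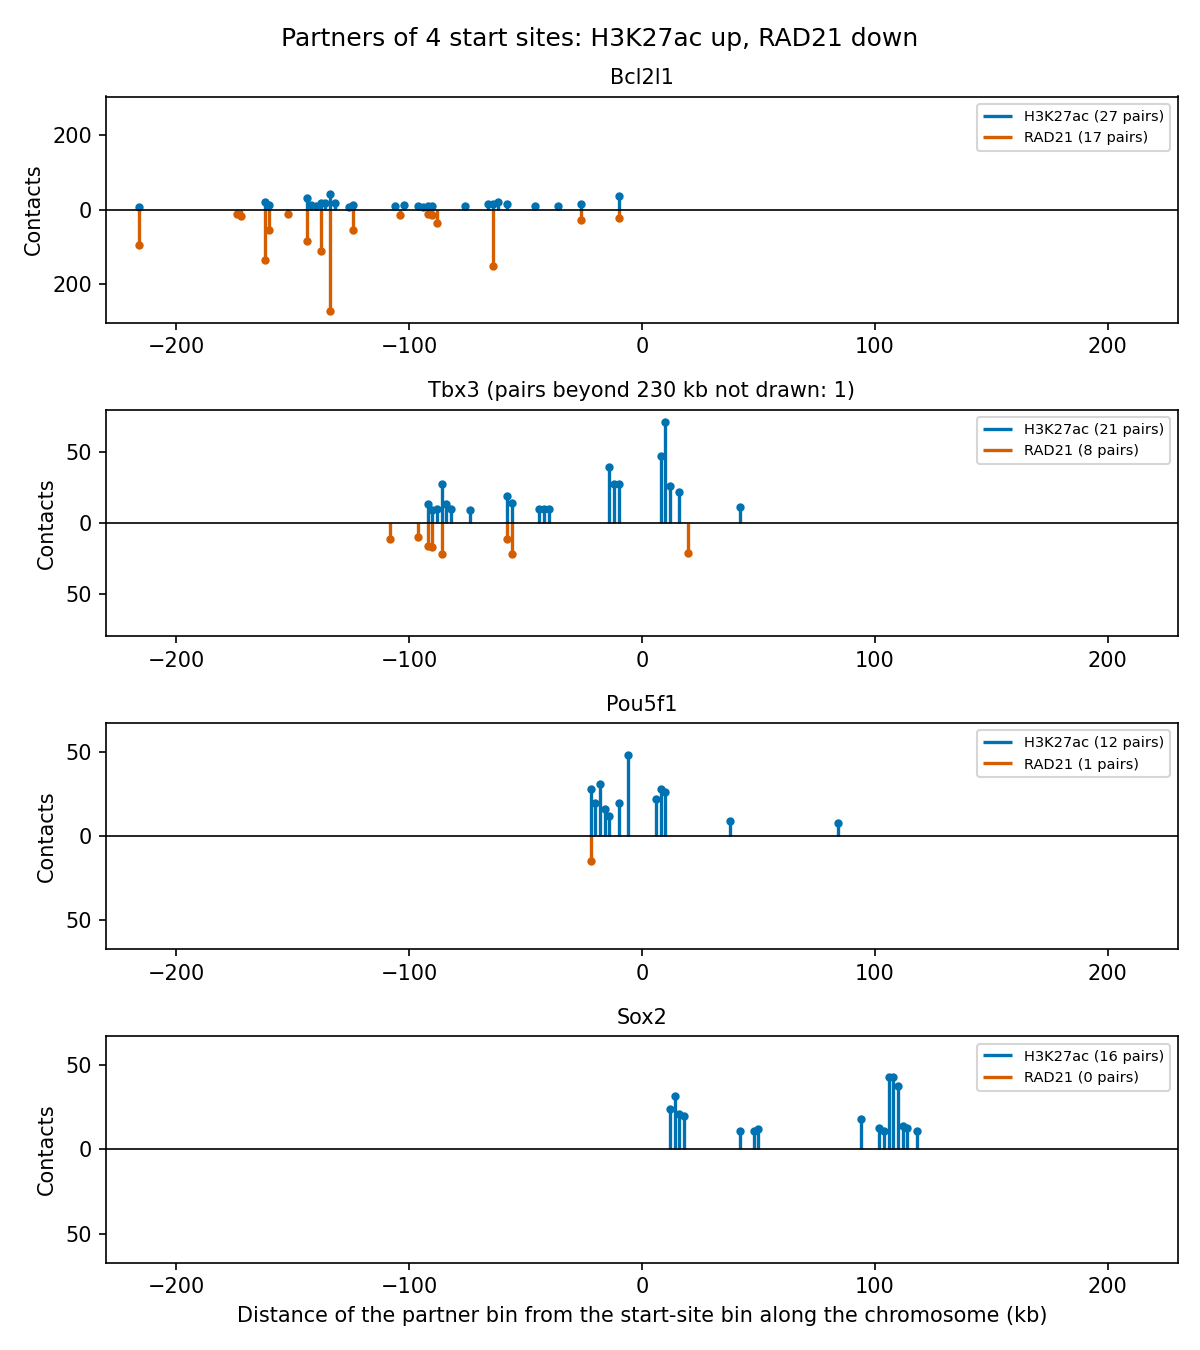
Contacts (vertical axis) of each pair at the start-site bins of 4 genes against the distance of the partner bin (kb, along the chromosome), with H3K27ac drawn upward in blue and RAD21 downward in orange on the same scale within a gene. Bcl2l1 has 12 common partners, all to the left, Tbx3 has 5, Pou5f1 has 1 at -22 kb, and Sox2 has no RAD21 pair.

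Some genes had many pairs of 1 kind and none of the other. Tmem270 had 20 RAD21 pairs with 661 contacts and no H3K27ac pair, followed by Rhof, a small GTPase gene (7 and 436), the ligand gene Wnt7b (16 and 434) and the kinesin light chain gene Klc3 (25 and 426). The Tmem270 pairs all ran to higher coordinates, over the claudin genes Cldn4 and Cldn3, and the strongest ended 60 kb away with 116 contacts. The reverse held for Sfi1, a centrin-binding protein gene (45 H3K27ac pairs with 957 contacts), Zfp57, which maintains imprints (30 and 670), Arid5b (30 and 667) and 2410137M14Rik (19 and 603). Zfp57 and 2410137M14Rik are not separate examples: their start bins lie 20 kb apart, with H2-M5 between them, and are partners of each other. At Sfi1, 0 of the 45 pairs lay inside a RAD21 pair and 0 of its partners were RAD21 anchors. They lay within 60 kb of the start bins and mostly within Sfi1 itself, where the coverage of the start bin was 13396, and the part of coverage was not tested. At Zfp57 and Arid5b, in contrast, 30 of 30 pairs lay inside a RAD21 pair, and in 11 and 7 of these pairs the partner was a RAD21 anchor.

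Regulators of naive pluripotency mostly had H3K27ac pairs at their start sites (22 of 26, or 84.6%, against 31.3% of all protein-coding genes), and 8 had a RAD21 pair there as well (30.8%, against 17.3%). That is 36.4% of the 22, compared with 34.4% of all genes with an H3K27ac pair, and no member had RAD21 alone. The 8 were Dppa5a, Fgf4, Klf5, Nanog, Pou5f1, Tbx3, Tdgf1 and Zfp42. Pou5f1, which encodes OCT4, had 12 H3K27ac pairs with 268 contacts and 1 RAD21 pair, to a bin 22 kb upstream, with 15 RAD21 and 28 H3K27ac contacts. The core in its start-site bin, printed above, lies in a coding exon on the plus strand, and that RAD21 pair ran against it. Nanog, a homeodomain factor, had 21 H3K27ac pairs with 397 contacts and 2 RAD21 pairs. One RAD21 pair joined a bin 38 kb upstream (16 RAD21 and 13 H3K27ac contacts), and the other a bin 4 kb upstream (19), below the shortest span of the H3K27ac list, 6 kb. Its strongest H3K27ac partners, 58 kb downstream in an intron of Slc2a3 (42 contacts) and 44 kb upstream (39), had no RAD21 pair with the Nanog bin.

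Tbx3, a T-box factor, had the most RAD21 pairs of the list, 8 with 130 contacts, beside 21 H3K27ac pairs with 433. Their 5 common partners lay 56 to 92 kb upstream in the noncoding gene Tbx3os1, with 11 to 22 RAD21 and 9 to 27 H3K27ac contacts. Its strongest H3K27ac pair, of 71 contacts, ended 10 kb downstream and was not in the RAD21 list. Zfp42, a marker of naive cells, had 14 H3K27ac pairs, and its 1 RAD21 pair of 7 contacts matched the strongest of them, of 119 contacts, 14 kb away. Only 1 of those 14 pairs lay inside a RAD21 pair. At Tdgf1, which encodes a Nodal co-receptor, the RAD21 pair of 23 contacts met an H3K27ac pair of 52 contacts over 8 kb. The RAD21 pairs of Fgf4 (12 contacts) and Klf5 (27) had no common partner.

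Sox2 and Klf4, which with Pou5f1 are core reprogramming factors, had no RAD21 pair at their start sites. Sox2 had 16 H3K27ac pairs with 335 contacts, all downstream. The strongest ended 106 and 108 kb away with 43 contacts each, in the region where its distal enhancer is known in these cells. All 16 lay inside a RAD21 pair, as did 77.3% of all H3K27ac pairs, and in 4 of the 16 the partner bin was a RAD21 anchor. Klf4 had 7 H3K27ac pairs with 144 contacts, 3 of them inside a RAD21 pair and 4 with a partner that was a RAD21 anchor. Esrrb (15 pairs with 451 contacts) and Klf2 (12 with 354) likewise had no RAD21 pair, while 15 of 15 and 12 of 12 of their H3K27ac pairs lay inside one. Pairs of 1 start bin share its position, so these are not separate counts.

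Signalling targets and ligands had an H3K27ac pair at 15 of 26 start sites (57.7%, against 31.3% of all protein-coding genes) and both kinds at 9, or 60% of the 15, against 34.4% of all genes with an H3K27ac pair. They were Axin2, Egr1, Etv4, Etv5, Lifr, Mycn, Smad7, Socs3 and Tcf7l1. Socs3, a feedback inhibitor of LIF signalling, had 9 RAD21 pairs with 223 contacts and 13 H3K27ac pairs with 233, of which 5 were common. The common partner 56 kb away had 65 RAD21 and 10 H3K27ac contacts, and the one 6 kb to lower coordinates had 22 and 56. Tcf7l1, a repressor of Wnt targets, had 11 RAD21 pairs with 214 contacts and 16 H3K27ac pairs with 212, but 2 common partners. The stronger of these, 112 kb away in its own intron, had 46 RAD21 and 17 H3K27ac contacts. Smad7, an inhibitor of TGF-beta signalling, had 20 H3K27ac pairs and 2 RAD21 pairs, which ended 228 kb to one side and 232 kb to the other. Mycl had 5 RAD21 pairs with 164 contacts and no H3K27ac pair.

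Genes of the loop machinery had an H3K27ac pair at 13 of 15 start sites (86.7%, against 31.3% of all genes). Both kinds met at 6, or 46.2% of the 13 (against 34.4% of all genes with an H3K27ac pair): Ctcf, Pds5b, Smc3, Stag1, Stag2 and Wapl. Stag1, a cohesin subunit, had 8 RAD21 pairs with 127 contacts and 9 H3K27ac pairs with 123, of which 5 were common. The strongest common partner was the start site of Nck1, 96 kb away, with 36 RAD21 and 21 H3K27ac contacts. Rad21 itself had 4 H3K27ac pairs with 76 contacts and no RAD21 pair, and Nipbl, the cohesin loader, had 1 RAD21 pair of 7 contacts and no H3K27ac pair. Among acetylation writers, readers, erasers and Mediator genes, 11 of 16 (68.8%, against 31.3% of all genes) had an H3K27ac pair and 3 had both kinds (Brd2, Brd3 and Ep300, which encodes the acetyltransferase p300). The 3 made up 27.3% of the 11, against 34.4% of all genes with an H3K27ac pair, and each had a common partner. Polycomb and DNA methylation genes had an H3K27ac pair in 12 of 16 cases (75%) and both kinds in 2, Eed and Uhrf1. These were 16.7% of the 12, also below the 34.4% of all genes with an H3K27ac pair. The 2 RAD21 pairs of Uhrf1, a DNA methylation cofactor, joined adjacent bins at its start to the start site of Plin3, with 34 and 24 RAD21 and 48 and 30 H3K27ac contacts.

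Lineage regulators seldom had H3K27ac pairs, and Hox genes had them about as often as all protein-coding genes (31.3%). Of 23 formative and lineage regulators, 3 (13.0%) had an H3K27ac pair, 6 (26.1%, against 17.3% of all protein-coding genes) a RAD21 pair and 1, Eomes, both. Eomes made up 33.3% of the 3, against 34.4% of all genes with an H3K27ac pair. Myod1, Neurog1, Pou3f1 and Sox1 were among those with RAD21 only, and had 1 or 2 pairs each with 7 to 19 contacts. Of 21 Hox genes, 7 (33.3%) had an H3K27ac pair, 5 (23.8%) a RAD21 pair and 1, Hoxc10, both (14.3% of the 7). Hoxc10 had 9 RAD21 pairs with 274 contacts, most of them to bins 198 to 216 kb away. The strongest of these, at 210 kb, had 63 RAD21 contacts and 8 H3K27ac contacts. Hoxa5 had 11 RAD21 pairs with 151 contacts and no H3K27ac pair. Of 86 genes with symbols of ribosomal proteins, 78 had an H3K27ac pair and 23 both kinds, 29.5% of the 78 (against 34.4% of all genes with an H3K27ac pair), and none had RAD21 alone. The symbols took in Rps19bp1, which is no ribosomal protein, and without it the counts were 77 and 22 of 85. Against the 10.8% of all protein-coding genes with both kinds, the lists stood at 4.35% for lineage regulators, 4.76% for Hox genes, 12.5% for Polycomb and DNA methylation, 18.8% for acetylation and Mediator, 26.7% for ribosomal proteins, 30.8% for naive pluripotency, 34.6% for signalling and 40% for the loop machinery. The shares with an H3K27ac pair ran from 13.0% for lineage regulators to 90.7% for ribosomal proteins and differed in order from the shares with both kinds. No difference between lists was tested.

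**Figure D5:**
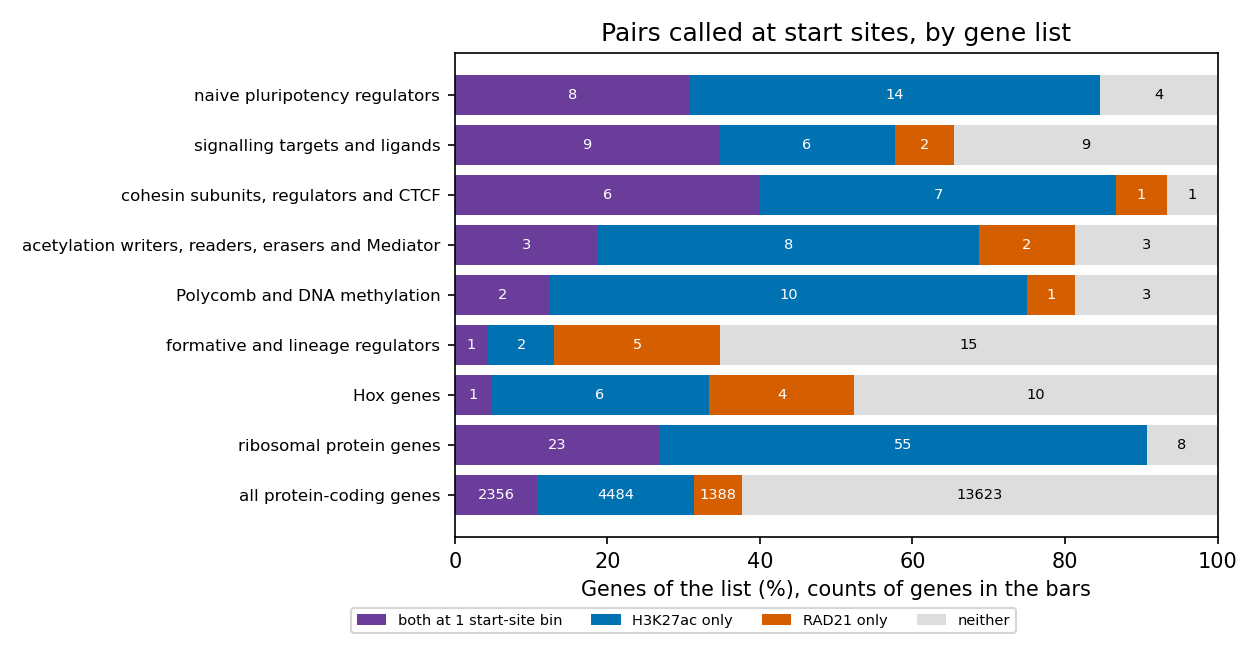
Genes of 8 lists and of all protein-coding genes, as percent of the list (horizontal axis), by the pairs called at their start sites, with counts of genes in the bars. The share with both kinds runs from 4.35% for lineage regulators to 40% for the loop machinery, and the lineage regulators have more genes with RAD21 only (5) than with H3K27ac only (2).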

How the data were processed

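MNase HiChIP interactions were analysed from lists that the authors deposited, 1 for each antibody and treatment, pooled over replicates per the labels. Per the file headers, each row holds 2 bins, a whole-number contact count, deposited coverage counts and peak flags of both bins, and p-values and q-values from a model with coverage bias, in the column layout of FitHiChIP. The largest deposited q-value was just under 0.05. The submitters' processing notes name Trim Galore, BWA, MACS2, deepTools and mm10, with no order. Their versions, the filters and the number of reads per sample are not given in the sources used here, so the depth of single samples is unknown, and precision is limited by the median of 13 contacts a pair. Contact counts were used as they stand in the lists, without normalisation here.

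Coordinates were read as GRCm38 (mm10), where 0 anchor bins lay beyond a chromosome end, and are counted from 1. RAD21 and CTCF bins of 1 kb were assigned to the 2 kb grid by rounding their start down. Start sites were the 5′ ends of protein-coding transcripts in the GENCODE M21 basic annotation. A bin is at a start site when it holds one. An H3K27ac pair was nested when both bins lay within the span of 1 RAD21 pair, ends included. Genome sequence was taken from RefSeq GRCm38. With 1 list a group, no test between conditions was possible and none was made. Shares have 95% Wilson intervals and differences Newcombe intervals.

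Named were the 10 genes with both kinds of pair and most contacts in each list, the 4 with most contacts of 1 kind and none of the other, 6 common bin pairs per list, the 4 RAD21 pairs holding most H3K27ac pairs, list members with both kinds, and Sox2, Nanog, Klf4 and Pou5f1. Within each ranking, genes whose start bins lay within 2 bins of one already named were left out, as were common pairs within 2 bins at both ends and overlapping holding pairs. Other members were named with values seen, to illustrate a count. The members, gene lists and rules were chosen with earlier results of these data known. The classes of coverage, distance and 1 kb bins, the uncalled pairs, the motif direction and the distance to the nearest RAD21 anchor were added after seeing the data. The counting functions were tested on simulated data. Python 3.11.15, numpy 2.4.6, pandas 2.3.3, scipy 1.17.1 and matplotlib 3.10.9 were used.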

Additional observations from a re-analysis of the deposited data

How the results depend on the processing

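All results rest on 1 pooled list per antibody. No paired analysis was possible because both antibodies have merged lists without replicate columns. Leaving out single replicates was not run, as no value exists for them. With q-values of 0.01 or less in both lists, the RAD21 share of H3K27ac anchor bins was 26.4% at start sites and 15.7% elsewhere (difference 10.7 points), 72.1% of H3K27ac pairs were nested, 5.00% were on the same bin pair as a RAD21 pair, and 72.6% of pair ends ran to the RAD21 side. With 10 or more contacts these values were 28.4%, 14.8%, 13.6 points, 71.5%, 4.77% and 69.3%. A tolerance of 1 bin gave 39.6% at start sites, 33.7% elsewhere, 5.90 points and 13.2% on the same bin pair. The outermost start of each gene gave 34.1% at start sites, and peak-flagged bins gave 18.4% elsewhere. Requiring H3K27ac ends strictly between the RAD21 anchors gave 71.9% nested. An H3K27ac list of the RAD21 list's length gave 77.9% nested and 6.69% on the same bin pair. At start sites only, 67.7% of ends ran to the RAD21 side. The next settings were added after seeing the data. The nested share of called minus uncalled pairs was 17.5 points above 80 to 160 kb and 24.4 points above 160 to 320 kb. It was 19.8 and 24.0 with q-values of 0.01 or less, 18.5 and 23.5 with 10 or more contacts, and 15.1 and 20.5 without RAD21-list pairs. The same differences in the side share, 20.7 and 17.1 points, were 24.3 and 17.7, 22.4 and 14.5, and 16.1 and 11.6 under these settings. Genes with both kinds numbered 1588, 1777 and 2713 under the first 3 settings of this paragraph, and genes with a common partner 695, 771 and 1294. Of 46 combinations, 28 gave a value outside the 95% interval of the reported one, and the gene counts had no interval. Only the differences, between start sites and elsewhere or between called and uncalled pairs, could change sign, and 0 did. Single shares and gene counts have no direction to turn, so they say nothing on this point. Low contact counts limit all single pairs, and an uncalled pair is not an absent contact.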
